A study of Homo sapiens with 16 samples.

Results

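The immunoglobulin heavy chain constant genes are the 9 genes on chromosome 14 that encode the constant part of IgM (IGHM), IgD (IGHD), the IgG subclasses (IGHG1, IGHG2, IGHG3 and IGHG4), the IgA subclasses (IGHA1 and IGHA2) and IgE (IGHE). They were taken by gene symbol from the count tables, where all 9 of 9 were found among 62714 genes. The 16 libraries came from 4 B cell lymphoma lines whose cells carried CRISPR-Cas9 with 4 guides against CREBBP, which encodes a lysine acetyltransferase, or against AAVS, the control site. Each targeted line was a pool of cells and not a clone, and was sampled at baseline and after 4 h with 10 ng/ml IL4, which gave 4 groups (AAVS or CREBBP pools, baseline or IL4) with 1 library for each line in each. All pools carried the lentiviral vector pLENTI-CRISPRv2. Line 1 was SU-DHL4 and line 4 was DOHH2. Lines 2 and 3 were OCI-LY7 and SU-DHL10, but the sample titles and the cell line field assign these 2 names the opposite way round, so they are called line 2 and line 3 here.

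In a B cell the rearranged variable segment is first joined by splicing to the mu and delta constant exons, so that naive cells make IgM and IgD. Class switch recombination then deletes the DNA between the mu switch region and the switch region of a downstream gene, and the cell makes IgG, IgA or IgE from that gene. Before a gene can be switched to, it is transcribed from its own germline promoter, and IL4, acting through STAT6, is the classical inducer of the germline transcripts of IGHE and of gamma genes. The annotated exons of the 9 genes hold the constant region only, so a gene count cannot tell a germline transcript from the mature message of a switched cell.

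On the minus strand of chromosome 14 (GRCh38) the genes run in the order IGHM (chr14:105851705-105856218), IGHD, IGHG3, IGHG1, IGHA1, IGHG2, IGHG4, IGHE and IGHA2 (chr14:105583731-105588395). The start of IGHA2 lies 267823 bases downstream of the start of IGHM. The 4 gamma genes were 95.26% to 96.41% identical to each other over the aligned bases of 1 annotated transcript per gene, and IGHA1 and IGHA2 were 96.27% identical. Of all 100-base windows of the transcripts, 30.4% in IGHG1, 18.9% in IGHG2, 20.8% in IGHG3 and 10.2% in IGHG4 occurred unchanged in another member, compared with 7.71% in IGHA1 and 7.67% in IGHA2. No window of IGHM, IGHD or IGHE did so. Reads from such windows were divided between genes by estimation, which makes the split among gamma genes, and between the alpha genes, less certain than the levels of IGHM, IGHD and IGHE.

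The subclasses differ most in the hinge, the flexible segment between the antigen-binding arms and the stem, and the hinge exons are printed here because they show how these near-identical genes can be told apart. Capitals mark the in-frame cysteine codons, which form the bonds between the 2 heavy chains or with the light chain. IGHG1 and IGHG4 have 3 and 2 cysteine codons in the hinge, IGHG2 has 4, and IGHG3 has 4 hinge exons in place of 1.
IGHG1 hinge (chr14:105742341-105742385): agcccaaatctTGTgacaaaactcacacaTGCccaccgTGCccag
IGHG2 hinge (chr14:105644068-105644103): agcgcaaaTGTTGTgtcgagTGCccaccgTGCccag
IGHG3 hinge, exon 1 (chr14:105770669-105770719): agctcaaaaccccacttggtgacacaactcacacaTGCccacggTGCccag
IGHG3 hinge, exon 2 (chr14:105770481-105770525): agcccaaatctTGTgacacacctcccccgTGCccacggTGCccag
IGHG4 hinge (chr14:105625344-105625379): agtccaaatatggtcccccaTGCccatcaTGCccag

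The region where germline transcripts start lies upstream of each constant gene that can be switched to. The letters TTCNNNNGAA, the spacing preferred by STAT6, read the same on both strands and were searched for in the 10 kb upstream of each gene. They occurred 4 times upstream of IGHE, 6 times upstream of IGHG4, 3 times upstream of IGHD, 2 times each upstream of IGHM, IGHG2 and IGHG3, once upstream of IGHG1 and not upstream of IGHA1 or IGHA2. The window of IGHD, whose exons are reached by splicing, ran into the IGHM gene. Of 9038 windows of 10 kb on chromosome 14, 93.8% held at least 1 match and the median was 3, so the number of matches alone did not set these genes apart. The match closest to IGHE, and the match that the 4 gamma genes had in the same surrounding sequence, are printed with the matched letters in capitals, all on the minus strand.
IGHE, 3532 bases upstream (chr14:105605245-105605284): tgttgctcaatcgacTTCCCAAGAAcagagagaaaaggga
IGHG1, 4851 bases upstream (chr14:105747907-105747946): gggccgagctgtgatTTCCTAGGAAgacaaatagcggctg
IGHG2, 3616 bases upstream (chr14:105648391-105648430): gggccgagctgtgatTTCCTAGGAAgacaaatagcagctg
IGHG3, 4218 bases upstream (chr14:105775608-105775647): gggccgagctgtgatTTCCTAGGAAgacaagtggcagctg
IGHG4, 3530 bases upstream (chr14:105629581-105629620): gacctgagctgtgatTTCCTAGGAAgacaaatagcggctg

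The libraries held 19649735 to 61981976 counts each, and those of the AAVS IL4 group held 19649735 to 47716763. A count of 0 allowed a level of up to 3 counts, which was 0.0484 to 0.153 CPM (the count scaled to the library total), and such limits and intervals cover counting error only. CREBBP itself was at 69.9 to 278 CPM in the 8 CREBBP libraries and at 190 to 379 CPM in the 8 AAVS libraries, and guides that cut a gene need not lower its RNA. The 6 B cell markers, among them MS4A1, CD22 and PAX5, were counted in every library, and summed to 2613 to 4614 CPM with IL4 in AAVS pools and to 2624 to 5137 CPM in the other 12 libraries.

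The 4 AAVS IL4 libraries stood apart from the other 12 in some genes of other cell types and states. Of the summed levels of these lists, only that of the myeloid markers did not overlap. The summed level of 10 T cell markers was 32.4 to 176 CPM there and 2.16 to 38.3 CPM elsewhere, and all 10 were counted in every AAVS IL4 library, while CD2 and ICOS were at 0 in all 12 others. The 6 resting B cell markers summed to 109 to 1312 CPM against 23.7 to 379 CPM, and the 11 myeloid markers to 5.24 to 21.7 CPM against 0.398 to 3.47 CPM, with MARCO at 0 throughout. The 14 stromal, endothelial and epithelial markers summed to 5.42 to 77.8 CPM against 0.199 to 51.2 CPM, with CDH5 and KRT19 at 0 throughout. The 4 memory B cell markers summed to 76.2 to 174 CPM against 24.9 to 297 CPM. The 8 plasma cell markers summed to 402 to 2254 CPM against 138 to 1055 CPM. CD27, a memory marker, was lower with IL4 in each AAVS pool. In lines 1 to 4 it was at 149, 118, 282 and 117 CPM at baseline and at 122, 42.5, 59.0 and 96.8 CPM with IL4. With IL4 in the AAVS pools, edgeR called 7 of 10 T cell and 3 of 6 resting B cell markers higher. It also called 2 of 4 memory B cell and 2 of 8 plasma cell markers higher. LYZ of the myeloid and CDH1 of the stromal, endothelial and epithelial list were called higher too, and none of the 6 B cell markers was. Over all genes tested, 2.39% were called higher. CD2 and ICOS had no count in the AAVS baseline libraries. CD3D, CD28, TRBC1, TNFRSF13B, PRDM1, LYZ and CDH1 were at most at 0.221 CPM there. All of these genes, CD2 and ICOS included, passed the filter on low counts only through the IL4 group, so their calls restate their levels. Because only 1 condition holds these libraries, these marker levels and the IL4 treatment of AAVS pools cannot be told apart, and their part in the results on the heavy chain genes was not tested. In bulk RNA, fewer cells of a type and less RNA per cell cannot be told apart either.

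In the 12 libraries outside the AAVS IL4 group, the heavy chain counts of all 4 lines came almost wholly from the gamma genes, and IGHG4 carried most of the heavy chain counts in each of them. The share of IGHG4 in the counts of the 9 genes was 84.9% to 89.5% over these 12 libraries, and IGHG1 followed with 7.87% to 11.9%. The 4 gamma genes together made up 99.5% to 99.9%. No line and none of these 3 conditions had another leading gene.

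IGHG4 encodes the subclass that is rarest in human serum. In line 1 it was at 1731 CPM in AAVS baseline, 3073 CPM in CREBBP baseline and 2585 CPM in CREBBP IL4. In line 2 the same 3 libraries gave 1138, 1309 and 512 CPM. In line 3 they gave 2344, 1956 and 1612 CPM, and in line 4 1942, 1199 and 1181 CPM. The levels of the 4 lines therefore overlapped except for those of line 2 and line 1, and of line 2 and line 3, and the lowest was the CREBBP IL4 library of line 2. The counts of the 9 genes made up 0.0592% of that library and 0.128% to 0.352% of the other 11. The small RNAs RN7SK, RN7SL1 and RN7SL2 held 18.1% of the counts of that library, against 4.41% to 13.3% in all others.

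IGHG1, the main IgG subclass of serum, followed IGHG4 at a nearly fixed ratio in these 12 libraries. Its level was 217, 304 and 233 CPM in line 1, 128, 137 and 70.3 CPM in line 2, 270, 221 and 210 CPM in line 3, and 212, 143 and 149 CPM in line 4, in the order AAVS baseline, CREBBP baseline and CREBBP IL4. There were 9.01 to 13.7 counts of IGHG1 per 100 counts of IGHG4, with a median of 11.4. IGHG4 shares 238 of its 2641 100-base windows with IGHG1. Whether these counts came from IGHG1 transcripts or from IGHG4 reads assigned to IGHG1 was not tested.

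IGHG3 and IGHG2 were lower and separated the lines more clearly. IGHG3, the subclass with the long hinge, was at 6.88 to 14.2 CPM in line 2 and at 26.5 to 86.5 CPM in the other 3 lines. IGHG2 was at 0.348 to 0.788 CPM in line 2, at 29.6 to 63.1 CPM in line 1, at 24.7 to 32.9 CPM in line 3 and at 12.2 to 19.1 CPM in line 4. For both genes the 3 libraries of line 2 were below all 9 libraries of the other lines. IGHG2 per 100 counts of IGHG4 ranged from 0.0323 to 2.44.

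Scaled to exon length, the order of the genes in these 12 libraries was IGHG4 with 187 to 1121 CPM per kb, IGHG1 with 25.4 to 110, IGHG3 with 2.38 to 29.9 and IGHG2 with 0.127 to 23.1. The levels of IGHG4 and IGHG1 did not overlap, while those of IGHG1 and IGHG3, and of IGHG3 and IGHG2, did. IGHA1, IGHA2 and IGHE had medians of 0.637, 0.584 and 0.393 CPM per kb, and their ranges overlapped. IGHM and IGHD were at or near 0.

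**Figure D1:**
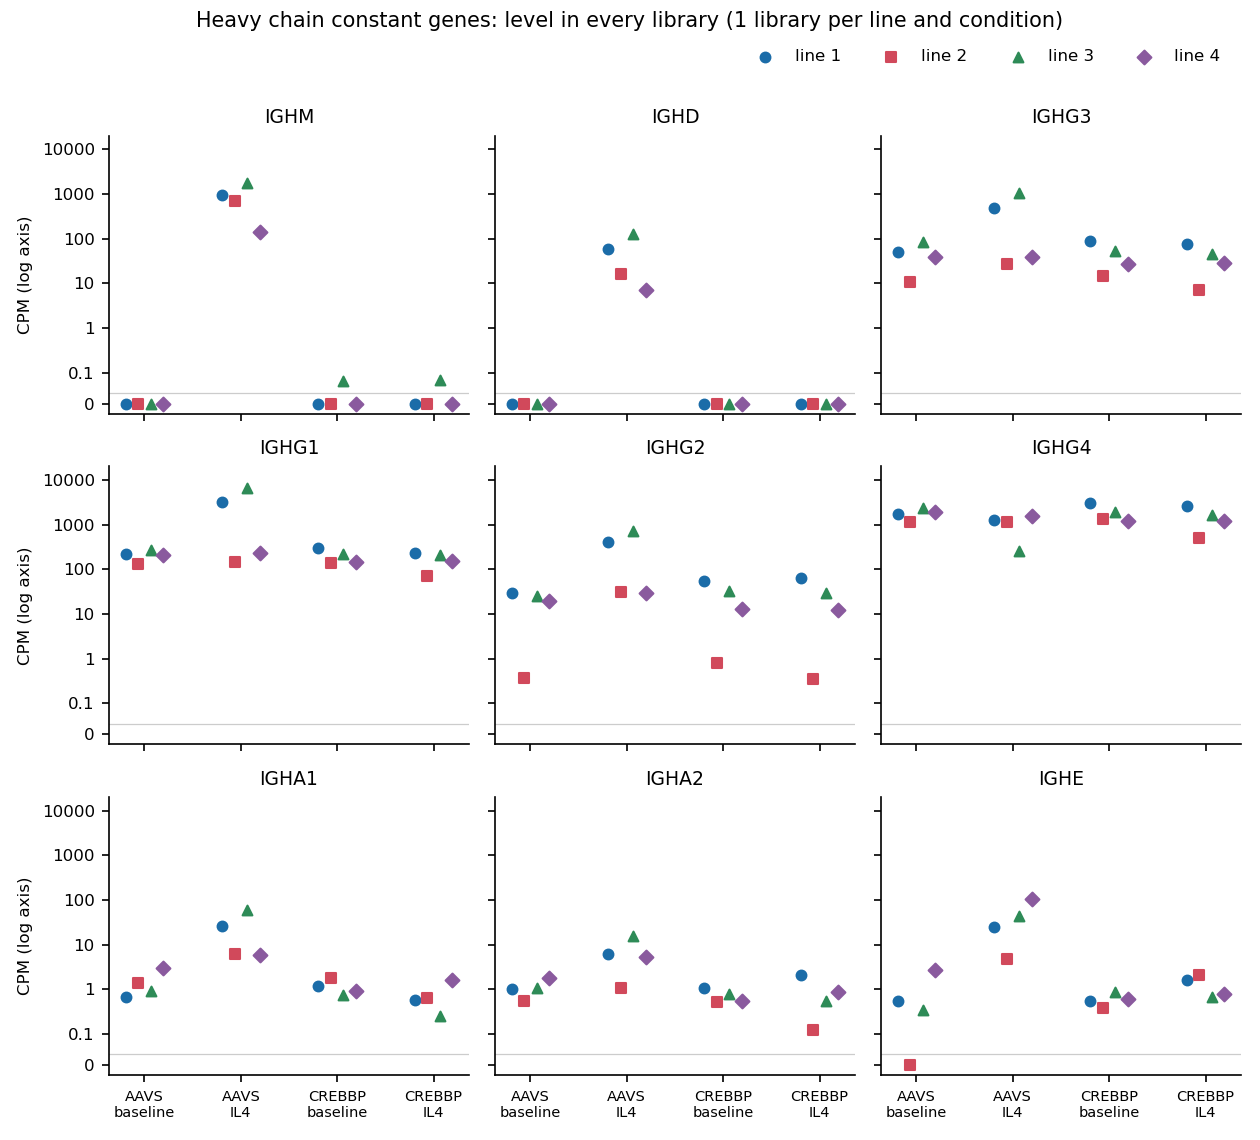
Level of each of the 9 genes in CPM (log axis, values of 0 drawn below the grey line) in the 4 groups, with 1 point for each line. With IL4 in the AAVS pools IGHM and IGHD lay between 6.98 and 1711 CPM, against at most 0.0696 CPM in any other library, whereas IGHG4 was at 251 CPM or more in all 16.

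The clearest difference between conditions was in IGHM and IGHD, the genes of unswitched B cells. IGHM was at 951 CPM in line 1, 711 CPM in line 2, 1711 CPM in line 3 and 138 CPM in line 4 in the AAVS IL4 libraries. In the other 12 libraries it had no count in 10 and 3 counts in each of the 2 CREBBP libraries of line 3. IGHD was at 59.0, 15.9, 126 and 6.98 CPM in the AAVS IL4 libraries of lines 1 to 4 and had no count in any other library. Both genes were thus counted in all 4 AAVS pools with IL4 and in none of them at baseline.

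Against a baseline of 0 only lower bounds can be given, set by 3 counts in the baseline library. IGHM was at least 17781-fold higher in line 1, 9669-fold in line 2, 27785-fold in line 3 and 2411-fold in line 4 in the AAVS IL4 library than in the AAVS baseline library. For IGHD the bounds were 1103-fold, 216-fold, 2040-fold and 122-fold. Both genes passed the filter on low counts only through the IL4 group, where they were high, so they had to differ. Their calls in the quasi-likelihood test of edgeR, blocked by line and adjusted by Benjamini-Hochberg over 20310 genes, add nothing to these levels, and no p is given for them.

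IGHE, the IgE gene, was also higher in the AAVS IL4 libraries, but it ranked the lines differently. It went from 0.552 to 24.3 CPM in line 1, from 0 to 4.80 CPM in line 2, from 0.349 to 43.8 CPM in line 3 and from 2.69 to 103 CPM in line 4. The ratio was 44.1 in line 1, at least 65.3 in line 2, 126 in line 3 and 38.2 in line 4. The fitted log2 difference was 5.99 ± 0.55 (SE, 4 lines), with an edgeR adjusted p of 0.00699. The highest level of IGHE was thus in line 4, the line with the lowest IGHM, and the lowest was in line 2.

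In all, 3 of 9 members were higher with IL4 in the AAVS pools (IGHM, IGHD and IGHE) and none was lower, at an adjusted p under 0.05 in edgeR. The calls of IGHM and IGHD follow from the filter as described, which leaves IGHE, counted in 3 of 4 baseline libraries. Over all genes tested, 2.39% were called higher and 0.0148% lower. The fitted log2 differences of the 7 members other than IGHM and IGHD ran from -0.96 for IGHG4 to 5.99 for IGHE. The median over all genes was 0.01. At an unadjusted p under 0.05, 7 of 9 members, IGHM and IGHD among them, and 3257 of 20310 genes passed. The AAVS baseline and AAVS IL4 levels did not overlap for IGHM, IGHD, IGHA1 and IGHE, which is 4 of 9. They did not overlap for 6.34% of all genes tested with the IL4 group higher and 0.699% with it lower. IGHM and IGHD had to be among the 7 and among the 4, so they add no support there.

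The gamma genes gave different ratios in different lines. IGHG1 was at 217 CPM at baseline and 3215 CPM with IL4 in line 1 and at 270.1 and 6548 CPM in line 3, but at 128 and 148 CPM in line 2 and at 212 and 234 CPM in line 4. The ratios of IL4 to baseline were 14.8 and 24.2 in lines 1 and 3, and 1.16 and 1.10 in lines 2 and 4. The fitted log2 difference of 2.14 ± 0.93 (SE) did not pass the edgeR test (adjusted p = 0.321). The 2 pairs of lines were told apart by these ratios themselves, so no test of the difference between them is given.

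IGHG3 gave 49.6 to 485 CPM in line 1 and 82.4 to 1029 CPM in line 3 from baseline to IL4. In line 2 it was at 10.7 and 27.5 CPM, and in line 4 at 39.5 and 38.2 CPM. IGHG2 gave 29.6 to 402 CPM in line 1, 0.368 to 31.6 CPM in line 2, 24.7 to 720 CPM in line 3 and 19.1 to 29.3 CPM in line 4. For IGHG2 the ratio was largest in line 2, at 85.8, where the baseline was lowest. Neither gene passed the test, with edgeR adjusted p of 0.200 for IGHG3 and 0.119 for IGHG2.

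IGHG4, the leading gene of every baseline library, was lower with IL4 in line 3, at 2344 CPM at baseline and 251 CPM with IL4, which was 9.33-fold lower. The same 2 libraries gave 1731 and 1275 CPM in line 1, 1138 and 1115 CPM in line 2 and 1942 and 1555 CPM in line 4. IGHG4 was lower with IL4 in 4 of 4 AAVS pools, with a fitted log2 difference of -0.96 ± 0.61 (SE) and an edgeR adjusted p of 0.454. The sum of the 4 gamma genes, taken as 1 row to set aside how reads were split between them, differed by 0.58 on the log2 scale, with an edgeR adjusted p of 0.427.

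The alpha genes were at low levels. With IL4, the AAVS pools of lines 1 to 4 had 25.7, 6.22, 59.9 and 5.76 CPM of IGHA1, above the 0.255 to 2.96 CPM of the other 12. IGHA2 was at 6.05, 1.09, 15.3 and 5.22 CPM against 0.124 to 2.13 CPM. Their fitted log2 differences between IL4 and baseline were 3.55 ± 0.97 and 2.18 ± 0.50 (SE), with edgeR adjusted p of 0.151 and 0.0968.

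These differences changed which gene led in the AAVS IL4 libraries. IGHG1 held 49.9% of the counts of the 9 genes in line 1 (95% Wilson interval 49.7% to 50.1%) and 62.3% in line 3. IGHG4 still held 54.1% in line 2, where IGHM was second with 34.5%, and 73.5% in line 4. In line 3 the share of IGHG4 was 2.39%, compared with 84.9% to 86.4% in the other 3 libraries of that line. IGHE reached 4.86% in line 4 and 0.233% to 0.417% in the AAVS IL4 libraries of the other lines. The same gene led in each library when the shares were scaled to exon length.

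**Figure D2:**
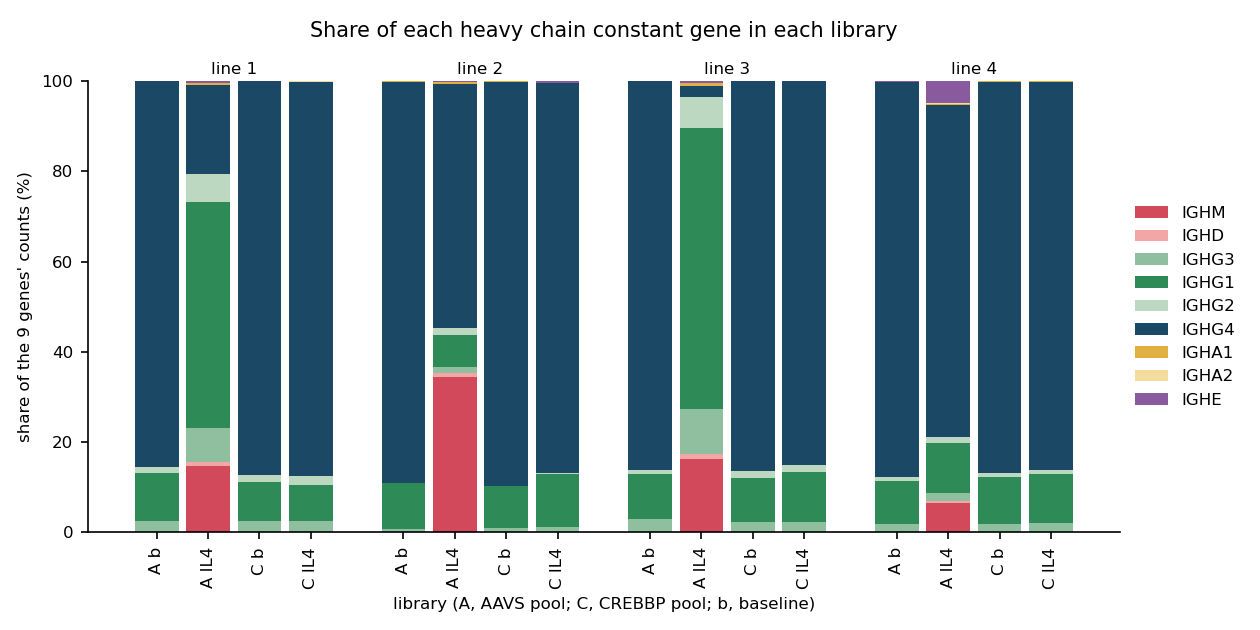
Share in percent of each gene in the counts of the 9 genes, 1 bar for each library, grouped by line. IGHG4 held 84.9% to 89.5% of the bar in 12 libraries and 2.39% to 73.5% in the 4 AAVS IL4 libraries, where IGHM held 6.53% to 34.5%.

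Set against IGHM in the same library, the members were in different proportions in the AAVS IL4 libraries. Lines 1 and 3 had nearly the same makeup apart from IGHG4. Per 100 counts of IGHM they had 2.56 and 2.56 counts of IGHE, 6.20 and 7.34 of IGHD, 42.3 and 42.1 of IGHG2, 338 and 383 of IGHG1, and 51.0 and 60.1 of IGHG3. For the 8 members other than IGHG4, the level in line 3 was 1.79 to 2.53 times that in line 1. IGHG4 in line 3 was 0.197 times that in line 1.

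Lines 2 and 4 departed from this makeup in different genes. Line 2 had 0.675 counts of IGHE, 2.23 of IGHD and 20.9 of IGHG1 per 100 counts of IGHM, all below the other 3 lines. Line 4 had 74.5 counts of IGHE per 100 of IGHM, compared with 0.675 to 2.56 in the other lines, while its 5.05 counts of IGHD per 100 of IGHM lay within their range of 2.23 to 7.34. IGHA1 in line 4, with 4.17 counts per 100 of IGHM against 0.874 to 3.50, was also above the other lines. So were IGHA2, with 3.78 against 0.153 to 0.892, and IGHG4, with 1126 against 14.7 to 157.

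**Figure D3:**
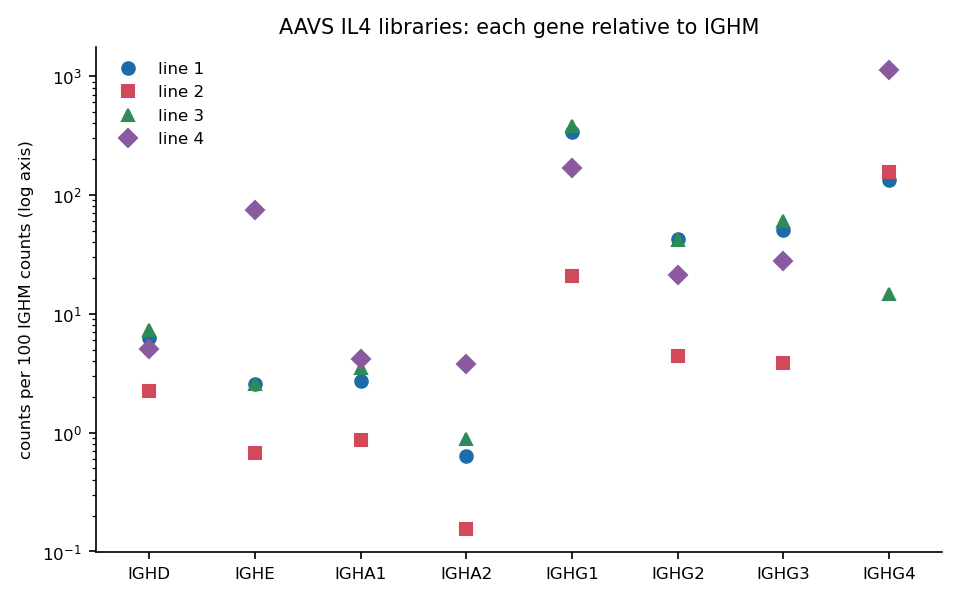
Counts of 8 heavy chain constant genes per 100 counts of IGHM (log axis) in the AAVS IL4 library of each line, 1 point for each line. Lines 1 and 3 lie close together in every gene but IGHG4, and line 4 has 74.5 counts of IGHE per 100 counts of IGHM where the other lines have 0.675 to 2.56.

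Genes counted in the AAVS IL4 libraries and hardly anywhere else were few. With at least 1 CPM in all 4 libraries of a group and under 0.5 CPM in all 12 others, 117 genes were found for the AAVS IL4 group and none for the other 3 groups. IGHM and IGHD were the only members among them. IGHE was not, as it reached for example 2.69 CPM in line 4 at baseline and 2.04 CPM in the CREBBP IL4 library of line 2. The genes with the highest median were IGHM, the adhesion receptor CD44 with 307 CPM, the receptor tyrosine kinase MET with 42.2 CPM, IGHD, and YBX3 with 37.0 CPM.

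Of these 117 genes, 112 were highest in line 3, 3 in line 4, 2 in line 1 and none in line 2. The full order of IGHM, line 3 above 1 above 2 above 4, was that of 48 genes, and of IGHD, IGHG2 and IGHA1 among the members. IGHE, with line 4 above 3 above 1 above 2, was highest where only 3 of the 117 were.

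The genes whose pattern was most like that of IGHM over the 16 libraries, by Pearson's r of log2(CPM + 1) among 14987 genes, were NRIP1, TNFRSF9, CD96, ZNF208 and TRPS1, with r of 0.9902 to 0.9924. TNFRSF9 encodes the costimulatory receptor 4-1BB and CD96 a receptor of T and natural killer cells. For IGHG4 the 5 nearest were MZT2A, EIF3F, SLC25A1, RPS2 and PALD1, with r of 0.946 to 0.968. Without the AAVS IL4 libraries they were PRKCSH, USF2, TRAF4, TBC1D22A and ATXN7L2, with r of 0.9604 to 0.9796 over 12 libraries and 14239 genes, a choice of libraries made after the data were seen. These correlations are descriptions, as the libraries share lines and depth. IGHM was at or near 0 in 12 of the 16 libraries, so its r mainly restate which genes were high in the AAVS IL4 libraries.

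IL4 was compared with baseline in the CREBBP pools in the same way. None of the 7 members tested was called between IL4 and baseline by edgeR, as was none of 18282 genes (0%), of which 502 had an unadjusted p under 0.05. DESeq2 called 1 gene, which was not a member. IGHM and IGHD were too low to be tested. The fitted log2 differences ran from -0.72 ± 0.53 for IGHA1 to 1.0 ± 0.62 for IGHE (SE, 4 lines). The levels of all 9 members overlapped between the groups, while 0.126% of all genes lay wholly higher and 0.252% wholly lower with IL4.

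IGHE was the only one of the 7 that was higher with IL4 in the fit. It went from 0.555 to 1.65 CPM in line 1, from 0.377 to 2.04 CPM in line 2, from 0.885 to 0.673 CPM in line 3 and from 0.5995 to 0.7744 CPM in line 4. It was thus higher in 3 of 4 lines, and the edgeR adjusted p was 0.924. IGHG4 was lower with IL4 in 4 of 4 CREBBP pools, with a log2 difference of -0.43 ± 0.21 (adjusted p = 0.924 in edgeR). The largest difference was in line 2, from 1309 to 512 CPM, where the IL4 library had the highest share of small RNAs. Without RN7SK, RN7SL1 and RN7SL2 in the totals, these 2 levels were 1393 and 625 CPM.

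CREBBP pools and AAVS pools were also compared within each treatment. At baseline none of the 7 members tested was called by edgeR, as was none of 18936 genes (0%), of which 2422 had an unadjusted p under 0.05. DESeq2 called 514 genes and no member. The fitted log2 differences of CREBBP from AAVS pools were between -0.44 for IGHA2 and 0.601 for IGHE, with 0.12 ± 0.25 for IGHG4, 0.03 ± 0.21 for IGHG1 and 0.48 ± 0.28 for IGHG2 (SE). The levels of all 9 members overlapped between the genotypes, while 0.602% of all genes lay wholly higher and 1.06% wholly lower in the CREBBP pools.

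With IL4, 2 of 9 members were lower in the CREBBP pools, IGHM and IGHD, beside 3.42% of all genes called lower by edgeR, and none was higher. Both passed the filter on low counts only through the AAVS IL4 libraries, so their calls are no further support and no p is given. The CREBBP IL4 libraries of lines 1, 2 and 4 had no count of IGHM and that of line 3 had 3, against 6589 to 33618 counts in the AAVS IL4 libraries. IGHD had no count, against 333 to 2468. This comparison and the IL4 comparison in the AAVS pools share the AAVS IL4 libraries.

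The other 7 members were not called in this comparison. IGHE was lower in 4 of 4 CREBBP pools, with a log2 difference of -4.43 ± 1.15 and an edgeR adjusted p of 0.0718. The smallest difference was in line 2, from 4.80 to 2.04 CPM. The log2 difference was -3.37 ± 0.76 for IGHG2 (adjusted p = 0.0531 in edgeR), and -4.17 ± 1.05 for IGHA1 (adjusted p = 0.0678 in edgeR). At an unadjusted p under 0.05, 8 of 9 members and 5018 of 19581 genes passed. The exception among the members was IGHG4, which was higher in the CREBBP pools of lines 1 and 3 and lower in those of lines 2 and 4. The levels did not overlap for IGHM, IGHD, IGHA1 and IGHE. They did not overlap for 12.9% of all genes tested with the CREBBP group lower and 1.39% with it higher. IGHM and IGHD, which had to differ, are among these members and among the 8, so they add no support there.

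**Figure D4:**
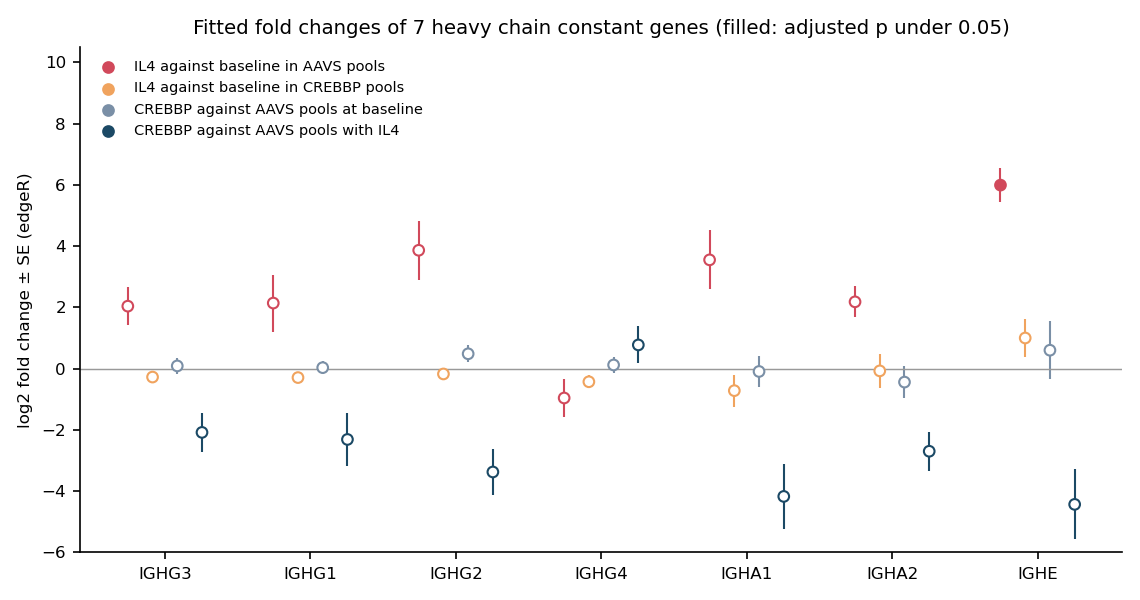
Fitted log2 fold change with its SE (edgeR, 4 lines) of the 7 heavy chain constant genes other than IGHM and IGHD in 4 comparisons, filled where the adjusted p was under 0.05. Only IGHE with IL4 in the AAVS pools (5.99 ± 0.55) is filled, and the 2 comparisons without the AAVS IL4 libraries stay between -0.72 and 1.0.

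The response to IL4 was compared between the genotypes directly, by an interaction term over all 16 libraries. It was called smaller in the CREBBP pools for IGHM and IGHE, which were 2 of 9 members, beside 0.62% of all genes called lower and 0.0182% called higher. The call of IGHM restates its level in the AAVS IL4 libraries, through which alone it passed the filter. For IGHE the log2 difference of the responses was -4.89 ± 0.82 (SE), with an edgeR adjusted p of 0.0300. For IGHM neither a size nor a p is given, because 3 groups were at or near 0. For IGHD, at 0 in all 3 other groups, the edgeR test gave an adjusted p of 1, so the model could not be fitted to it usefully. The calls of IGHM and IGHE were lost without line 1 and without line 3, when 0 of 9 members were called, and leaving out line 4 kept IGHM, lost IGHE and added IGHG2, IGHG3 and IGHA1.

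The call of IGHE with IL4 in the AAVS pools held without each line in turn. It was lost without the line as a block, at an edgeR adjusted p of 0.0763. Between genotypes with IL4, leaving out line 2 raised the count from 2 to 6 of 9 members, adding IGHG2, IGHA1, IGHA2 and IGHE, while the count over all genes rose from 859 to 2547.

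Switching itself needs DNA repair enzymes. Of 27 genes of class switch recombination, all of them tested, none was called with IL4 in either genotype, and the median log2 difference in the AAVS pools was -0.11 against 0.01 over all genes. Between the genotypes with IL4, the uracil glycosylase UNG was among those called higher in the CREBBP pools, by 1.75 ± 0.36 on the log2 scale, with an edgeR adjusted p of 0.0427. UNG was at 11.2, 69.4, 13.4 and 14.5 CPM with IL4 in the AAVS pools of lines 1 to 4 and at 51.6, 62.1, 52.1 and 52.3 CPM in the CREBBP pools, so that it was higher in lines 1, 3 and 4 and lower in line 2.

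The regulators of germline transcription include the IL4 receptor, its kinases, STAT6 and the transcription factors that act on the germline promoters. Of 19 genes, 3 were higher with IL4 in the AAVS pools and none was lower, beside 2.39% of all genes called higher. None was called in the CREBBP pools, where edgeR called 0% of all genes. NFIL3, a basic leucine zipper repressor, was at 69.7, 45.8, 142 and 57.7 CPM in the AAVS IL4 libraries of lines 1 to 4, above the 4.51 to 33.3 CPM of the other 12, and differed by 2.71 ± 0.47 on the log2 scale (adjusted p = 0.0412 in edgeR). The AP-1 factor BATF was higher by 2.24 ± 0.31 and the kinase JAK1 by 1.28 ± 0.21, with edgeR adjusted p of 0.0226 and 0.0340. Both were lower in the CREBBP pools with IL4 and had a smaller response there by the interaction term, as called by edgeR.

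The receptor and its signal transducer did not pass the test. IL4R, the alpha chain of the IL4 receptor and itself induced by IL4 in normal B cells, was at 437, 313, 870.5 and 239 CPM in the AAVS IL4 libraries of lines 1 to 4, against 65.1 to 153 CPM in the other 12. The groups did not overlap, and the fitted log2 difference was 2.06 ± 0.43, with an edgeR adjusted p of 0.0715. In the CREBBP pools IL4R differed by 0.27 ± 0.20 (adjusted p = 0.924 in edgeR). STAT6 lay between 334 and 572 CPM with IL4 in the AAVS pools and between 181 and 663 CPM in the other libraries.

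The partners of the heavy chain in the receptor and in secreted antibody were compared next. CD79A and CD79B, the signalling chains of the B cell receptor, ranged over 337 to 670.2 CPM and 173 to 405 CPM with IL4 in the AAVS pools, and over 213 to 692 CPM and 148 to 619 CPM in the other libraries. JCHAIN, which links the units of IgM and IgA polymers, was at 195 to 1363 CPM with IL4 in the AAVS pools and at 39.0 to 902 CPM otherwise. Of 13 genes for receptor partners, light chains and secretion, 12 were tested. With IL4 in the AAVS pools 1 of them was called higher, beside 2.39% of all genes. This was ELL2, an elongation factor that directs processing of secreted heavy chain messages, with 86.6, 9.84, 194 and 35.7 CPM in the AAVS IL4 libraries against 0.196 to 5.21 CPM elsewhere (log2 difference 4.36 ± 0.53, adjusted p = 0.0153 in edgeR). Between the genotypes with IL4, ELL2, IGLC1, IGLC3 and the plasma cell factor XBP1 were called lower in the CREBBP pools by edgeR. Of all genes, 3.42% were called lower in that comparison.

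The light chains showed the identity of the lines in the same libraries. A B cell uses either the kappa gene IGKC or a lambda gene, so a clonal line should use only one kind. IGKC made up 96.5% to 99.4% of the light chain constant counts in the 9 libraries of lines 1, 3 and 4 outside the AAVS IL4 group, and 0.276% to 0.423% in those of line 2, whose leading gene was IGLC2 at 166 to 309.5 CPM. With IL4 in the AAVS pools the IGKC share was 78.2% in line 1, 77.7% in line 3, 98.4% in line 4 and 2.85% in line 2. Lines 1 and 3 thus had lambda counts beside kappa in these 2 libraries, at 475 and 770.2 CPM, compared with 15.8 to 29.5 CPM in their other libraries.

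Heavy chain variable segments (IGHV), which join the constant genes in the mature message, summed to 3.21 to 7.82 CPM in the 12 libraries. They summed to 643 CPM in line 1 and 1301 CPM in line 3 with IL4 in the AAVS pools, and to 11.5 and 18.1 CPM in lines 2 and 4. In lines 1 and 3, 38 and 39 segments were at 1 CPM or more, and the leading segment, IGHV1-69D in both, held 19.2% and 14.1% of the counts. In the other 14 libraries 1 to 4 segments reached 1 CPM. Lines 1 and 3 were also those in which IGHG1 led in the AAVS IL4 library, and the part of the many variable segments and both light chains in that was not tested.

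**Figure D5:**
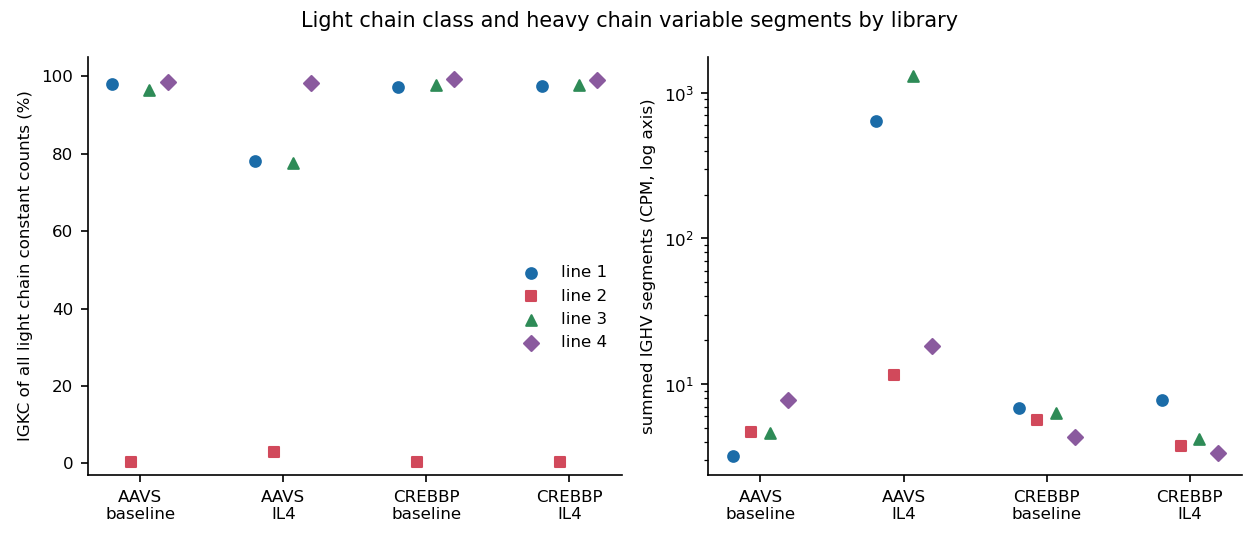
Share of IGKC in all light chain constant counts in percent (left) and summed CPM of heavy chain variable segments (right, log axis) in the 4 groups, 1 point for each line. In the AAVS IL4 libraries of lines 1 and 3 the IGKC share was 78.2% and 77.7% and the segments summed to 643 and 1301 CPM.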

How the data were processed

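The data were RNA-seq libraries of ribosomal RNA-depleted total RNA (50 ng input, paired-end reads of 151 bases). The authors trimmed reads with Cutadapt 2.3, aligned them to GRCh38 with STAR 2.7.8a and deposited RSEM 1.3.3 expected counts for each gene, which are whole numbers without normalization. RSEM divides reads that fit several genes by estimation. The methods refer these libraries to a protocol for primary cells that used a stranded Takara SMART kit, stated with another RNA input, and whether counting used strand is not given in the sources used here. Gene exons came from GENCODE release 44, which held 62639 of the 62714 genes, printed sequences were read from the GRCh38 reference, and promoters or proteins of the members were not used here.

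CPM were taken over all rows. Each comparison used edgeR 4.0.16 quasi-likelihood tests (TMM, filterByExpr, line as a block, Benjamini-Hochberg over all genes, threshold 0.05, R 4.3.3), and the interaction a term for each of 8 pools. A fitted log2 difference of a gene at 0 in a group depends on the prior count, so bounds from 3 counts are given. The SE of a fitted log2 difference was derived from the edgeR test, as its absolute size divided by the square root of the F statistic. DESeq2 1.42.0 was an alternative. Libraries of 1 line pair by origin, and their deviations correlated with a median r of 0.593, 0.711, 0.298 and 0.685 in lines 1 to 4. The 4 lines are the replicates, with 1 library per line and group. Fits were tested on simulated data. The members and lists were chosen with earlier results of these data known. Named were all 9 members, the called genes of each list (up to 4 by size), a set of further genes (STAT6, IL4R, NFIL3, CD79A, CD79B, JCHAIN, IGKC and IGLC2), the 5 genes most like IGHM and IGHG4, and the 5 highest found in 1 group only. Some genes that this rule names are not reported here.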

Additional observations from a re-analysis of the deposited data

Results flagged for a closer look

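The response to IL4 was called different between the genotypes for IGHM and IGHE by the interaction term of edgeR. The log2 difference of the responses, CREBBP pools minus AAVS pools, was -4.89 for IGHE. For IGHM the fitted value was -18.04, which depends on the prior count and is no measure of size. IGHM was at or near 0 in 3 of 4 groups and passed the filter only through the AAVS IL4 libraries, so its call restates its level there. Both calls were lost without line 1 and without line 3.

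IGHM in line 3 was at 0.0647 CPM in the CREBBP baseline library and at 0.0696 CPM in the CREBBP IL4 library, with the other 3 lines at 0. Each value rested on 3 counts, which is the limit that a count of 0 allows, and with 3 values at 0 any count above 0 would be singled out. Of 36 groups of 4 libraries examined over the 9 genes, 32 had any spread and these 2 were singled out, and chance alone singles out about 1 in 20.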

How the results depend on the processing

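Under alternative settings the number of members called with IL4 in the AAVS pools went from 3 to 7 without a filter on low counts, to 0 with at least 10 counts in every library (IGHM, IGHD and IGHE were then not tested), and to 8 both with DESeq2 and with all 16 libraries in 1 fit. Between genotypes with IL4 it went from 2 to 8 without a filter, with DESeq2 and with all 16 libraries, to 4 with no replicate block, and to 3 with at least 10 counts in every library (IGHG2, IGHA1 and IGHE, as IGHM and IGHD were then not tested). For the interaction it went from 2 to 6 without a filter, to 0 with at least 10 counts in every library, to 5 with DESeq2 (a set without IGHM), and to 0 with no replicate block. Leaving out 1 line at a time gave 3 to 4, 2 to 6 and 0 to 4 members in these comparisons, and 0 in the other 2. With no replicate block 3 members (IGHM, IGHD and IGHA1) were called with IL4 in the AAVS pools. Size factors of DESeq2 in edgeR and the summed gamma and alpha rows kept each count within 1.5 times. In the 2 comparisons without AAVS IL4 libraries 0 members were called in any setting, also with 12 libraries in 1 fit, an alternative added after the data were seen. The cause was not tested.

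Signs turned only for differences that were not called. For IGHA2 with IL4 in the CREBBP pools the log2 difference became 0.28 with no replicate block, 0.035 with all 16 libraries, and 0.30 and 0.21 without lines 2 and 3 (range without 1 line -0.48 to 0.30). Between genotypes at baseline, IGHG1 became -0.014 without a filter and -0.13 without line 1, IGHG3 -0.16 and -0.02 without lines 1 and 2, IGHG4 -0.12 without line 1 (range up to 0.37), IGHA1 0.42 without line 4 (range from -0.43), and IGHE -0.33 with no replicate block and -0.17 without line 2 (range up to 1.64). For the interaction, IGHG4 became -0.0136 without line 3 (range up to 1.08). With at least 5 CPM, 17 genes were found in the AAVS IL4 group only, and with under 0.1 CPM elsewhere, 37, and IGHM and IGHD were the members in both.

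Over all genes, edgeR called 488 with IL4 in the AAVS pools, against 1851 without a filter, 25 with at least 10 counts in every library, 2062 with DESeq2, 1270 with all 16 libraries, and 64, 1035 and 267 without lines 1, 2 and 4. Between genotypes with IL4 it called 859, against 3466 without a filter, 540 with no replicate block, 4154 with DESeq2, 4393 with all 16 libraries, and 104, 2547, 25 and 315 without lines 1 to 4. For the interaction it called 140, against 1191 without a filter, 69 with at least 10 counts, 2 with no replicate block, 1100 with DESeq2, and 16, 264 and 18 without lines 1, 2 and 3. At baseline 0 genes differed between genotypes, against 586 without a filter, 515 without line 2, 1 without line 4 and 514 with DESeq2, and with IL4 in the CREBBP pools 0, against 40 without a filter and 1 with DESeq2.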

Other observations

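The lambda gene IGLC7 was counted at 178, 276 and 259.7 CPM with IL4 in the AAVS pools of lines 1, 2 and 3 and at 0.0629 CPM in that of line 4, and reached at most 0.0616 CPM in the other 12 libraries. The pseudogenes IGHGP, IGHEP1 and IGHEP2 summed to 0.0884 to 1.60 CPM with IL4 in the AAVS pools and reached at most 0.859 CPM in the other libraries. Of these, IGHEP2 was tested in every comparison and IGHGP in 2, and neither was called by edgeR.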
